A study of Caenorhabditis elegans with 5 samples.

Results

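Voltage- and calcium-gated potassium channels of Caenorhabditis elegans were followed in sorted neurons of thoc-5(wy822) mutants and of wildtype animals. The set is 10 genes chosen by name (slo-1, slo-2, shk-1, shl-1, egl-36, kvs-1, egl-2, unc-103, kqt-1 and kqt-3), all present among the 42048 genes of the deposited table and all among the 13787 genes tested. The mutant group has 3 libraries, from animals with the allele thoc-5(wy822) and the transgene edIs6, and the wildtype group has 2 libraries from animals with edIs6 alone. Animals of both groups were synchronised, grown at 16 °C and taken on day 1 of adulthood. Their neurons were dissociated and sorted by fluorescence, and polyadenylated RNA was sequenced. The transgene edIs6 is known as an integrated unc-119 promoter-driven GFP that marks neurons, so what was sorted rests on that reporter. THOC-5 belongs to the THO complex, which packages new messenger RNA for nuclear export. Whether the libraries of a group stem from separate worm cultures is not stated in the labels, and the spread behind each p-value may therefore be technical.

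Potassium channels of this kind open when the membrane depolarises, and the efflux of potassium through them repolarises the cell, ends action potentials and calcium spikes, and limits transmitter release. Each channel is a tetramer of pore subunits. Shaker, Shal and Shaw type subunits (Kv channels) respond to voltage alone, the SLO family also to intracellular ions, while ERG and KCNQ type subunits tend to set slower currents near rest. In worms most of these genes are known to act in muscle as well as in neurons, and several were found through mutants that move or lay eggs poorly.

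Between 6.80 M and 8.69 M reads were counted on genes in a mutant library and 10.2 M and 10.3 M in the wildtype libraries. In normalised counts (reads divided by the authors' size factor of each library) thoc-5 itself had 78.3, 34.6 and 12.7 in the mutant libraries and 154 and 122.2 in wildtype. That is lower in every mutant library, without passing the test (log2 fold change -2.03, SE 0.90, limma adjusted p = 0.148). The libraries differed in the make-up of their RNA. A list of 20 pan-neuronal genes, with unc-119 left out because of the transgene, took 1.73%, 1.14% and 1.98% of the reads of mutant replicates 1 to 3 and 0.437% and 0.0402% of those of wildtype replicates 1 and 2. Wildtype replicate 2 therefore stood apart, with 4110 pan-neuronal reads against 45057 in wildtype replicate 1. Most of these reads came from egl-21 and egl-3 in every library. They had 27495 and 9634 reads in wildtype replicate 1, and 1551 and 617 in wildtype replicate 2. The summed pan-neuronal reads therefore mainly follow these genes. Of the pan-neuronal genes 18 of 20 were higher in every mutant library than in both wildtype libraries, and none was lower; over all tested genes 30.1% were higher and 26.5% lower in this sense. The 18 muscle markers took 1.24% to 1.56% of mutant reads and 3.34% and 6.31% of wildtype reads, and 13 of them were lower in every mutant library. For 10 intestinal markers the shares were 0.0451% to 0.198% in the mutant and 0.625% to 0.764% in wildtype, and 9 genes were lower in every mutant library. Epidermal markers (13 genes, 4 of them lower and 1 higher) took 0.177% to 0.738% against 3.73% to 4.58%, and germline markers (13 genes, all lower) took 0.00767% to 0.0247% against 0.0858% to 0.216%. Markers of glia and coelomocytes (10 genes, 4 of them higher and none lower) took 0.160% to 0.279% against 0.00673% to 0.0417%. Their median log2 levels overlapped between the groups, at 6.45, 7.10 and 6.85 in the mutant libraries and 7.41 and 4.99 in wildtype. Epidermal medians overlapped too, at 9.51, 10.4 and 8.68 in the mutant libraries and 8.25 and 10.5 in wildtype. The summed share thus does not stand for the typical gene of either list. No marker was at 0 in all libraries of a group. The part of this difference in make-up in the channel values was not tested beyond the comparison with the pan-neuronal list given further on. In such bulk libraries fewer cells of a type and less RNA per cell cannot be told apart.

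All 10 channel genes had higher normalised counts in each mutant library than in either wildtype library, a pattern that 30.1% of all tested genes shared in that direction. Of the 10 genes 4 rose in the limma test (slo-2, shk-1, unc-103 and slo-1) and none fell, against 6.97% of all tested genes called higher and 5.92% called lower. The other 6 had adjusted p between 0.0528 and 0.0805. When libraries were scaled to the pan-neuronal list, only unc-103 of the 4 kept its call. The value of slo-1 was then negative but within its standard error of 0. Fold changes are differences of mean log2(normalised count + 1), mutant minus wildtype, and their median was 4.51 over the channel genes and 0.13 over all tested genes (2.35 and 0.06 without wildtype replicate 2). Before adjustment the p-values of the 10 genes ran from 0.000369 to 0.0214. Together the 10 genes took 0.272%, 0.220% and 0.225% of the reads of mutant replicates 1 to 3, against 0.0420% and 0.00694% in wildtype replicates 1 and 2. Exact (Clopper-Pearson) 95% intervals around them did not overlap between the groups, the nearest bounds being 0.217% in mutant replicate 2 and 0.0433% in wildtype replicate 1, which covers counting error only. The 4 calls rested on all mutant libraries and on wildtype replicate 2. Without mutant replicate 1, 2 or 3, or without wildtype replicate 2, no channel gene and no gene at all was called in limma (7 or 8 channel genes and 3415 to 4702 of all genes at an unadjusted p below 0.05), and without wildtype replicate 1 all 10 channel genes were called, as were 15.7% of all genes. Without wildtype replicate 2 the log2 fold changes of shl-1, kvs-1, egl-36 and kqt-1 were 2.47, 1.66, 2.01 and 2.57, with adjusted p from 0.132 to 0.253.

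**Figure D1:**
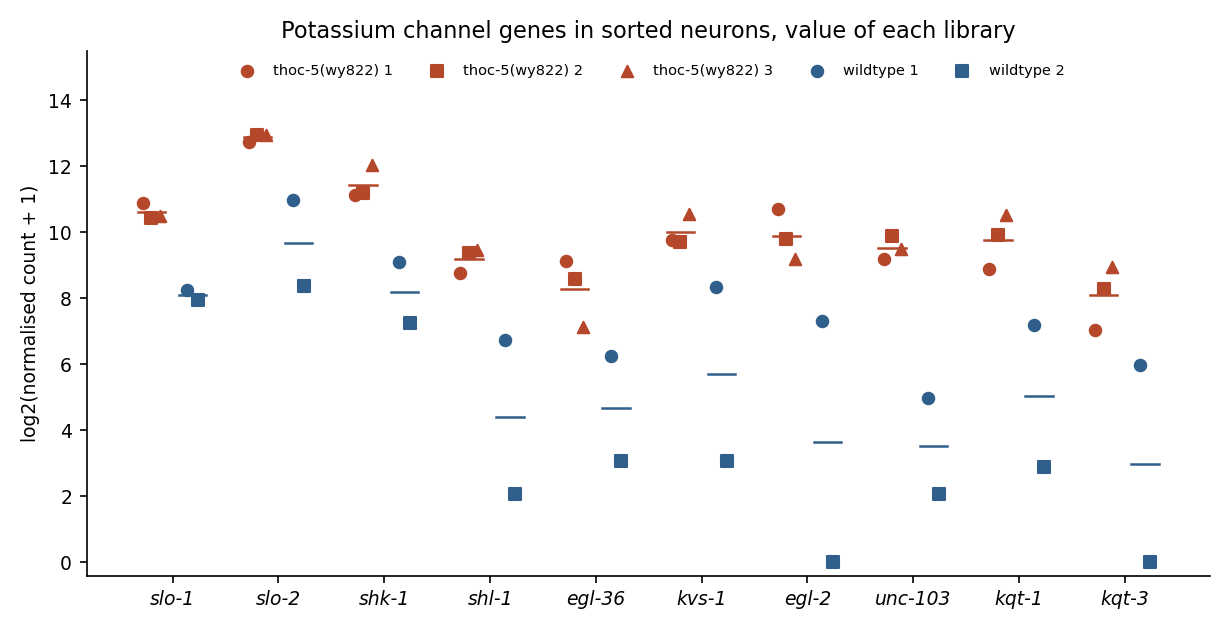
Level of each channel gene in each library, as log2(normalised count + 1); symbols are single libraries (3 thoc-5(wy822), left, and 2 wildtype, right, for each gene) and short lines are group means. All mutant points lie above both wildtype points for each gene, and the wildtype libraries lie close together for slo-1 (302 and 244 normalised counts) and far apart for egl-2 (158 and 0).

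The SLO family genes had the most channel reads (slo-2) and the closest wildtype libraries (slo-1). slo-2 (WBGene00004831, WBcel235 chromosome X, 11394605 to 11405931, minus strand) encodes a large-conductance channel that in worms responds to calcium and chloride and is known to carry much of the outward current of motor neurons and body-wall muscle. Normalised counts of slo-2 were 6855, 7970.4 and 7869 in mutant replicates 1 to 3, against 2017 and 330.4 in wildtype replicates 1 and 2. The mutant libraries lay within a factor of 1.16 of each other and the wildtype libraries 6.11-fold apart. slo-2 rose by a log2 fold change of 3.21 (SE 0.78, adjusted p = 0.0473), and was 1.90 without wildtype replicate 2 (adjusted p = 0.138). The call lay near the threshold, with an adjusted p of 0.0535 with a pseudocount of 0.5 and 0.0521 with no filter on low values.

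slo-1 (WBGene00004830, chromosome V, 18492261 to 18508212, plus strand) encodes the BK channel, opened jointly by calcium and depolarisation and known in worms as a brake on transmitter release at nerve terminals. It had 1881, 1388 and 1446 normalised counts in the mutant libraries, against 302 and 244 in wildtype. No other channel gene had wildtype libraries so close, 1.23-fold apart, where the summed pan-neuronal shares differed 10.9-fold. Of the pan-neuronal list, rab-3, unc-64 and snb-1 were as close between the wildtype libraries (1.19-, 1.13- and 1.22-fold). The others of that list with reads in both were further apart, from 1.41-fold (maco-1) to 66.5-fold (sng-1). slo-1 rose by a log2 fold change of 2.52 (SE 0.39, adjusted p = 0.0382; -0.64 scaled to the pan-neuronal list). Leaving out any single library kept the value between 2.36 and 2.67, with adjusted p from 0.0244 to 0.133.

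Among the Kv channels, shk-1 was the one called. shk-1 (WBGene00014261, chromosome II, 9758232 to 9768285, plus strand) encodes the Shaker type subunit of a delayed rectifier that shapes action potentials. Its normalised counts were 2223, 2342 and 4174 in the mutant libraries and 552 and 152 in wildtype, with mutant replicate 3 the highest. shk-1 rose by a log2 fold change of 3.26 (SE 0.65, adjusted p = 0.0397), and without wildtype replicate 2 the value was 2.34 (adjusted p = 0.134).

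shl-1 (WBGene00022240, chromosome IV, 6378285 to 6384070, minus strand) encodes the Shal type subunit of a fast transient current. It had 431, 664 and 713 normalised counts in the mutant libraries, against 106 and 3.19 in wildtype, where wildtype replicate 2 held 3 reads. Its log2 fold change of 4.80 (SE 1.28, adjusted p = 0.0542) did not pass.

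kvs-1 (WBGene00002242, chromosome X, 7690498 to 7707131, minus strand) encodes a voltage-gated subunit known to pair with the single-span subunit MPS-1 in sensory neurons. Normalised counts were 879.6, 835 and 1495 in the mutant libraries, against 325 and 7.44 in wildtype. The wildtype libraries were 43.7-fold apart, the widest gap among the channel genes with reads in both. Its log2 fold change was 4.30 (SE 1.41, adjusted p = 0.0790).

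egl-36 (WBGene00001202, chromosome X, 10734326 to 10744355, plus strand) encodes a Shaw type subunit known from mutants in egg laying and defecation. It had 560.1, 379 and 138 normalised counts in mutant replicates 1 to 3, against 75.9 and 7.44 in wildtype. Mutant replicate 3 lay 4.05-fold below mutant replicate 1, the widest gap between mutant libraries among the 10 genes, and 1.82-fold above wildtype replicate 1. With a log2 fold change of 3.60 (SE 1.08, adjusted p = 0.0665) it did not pass. Exons of egl-36 overlap those of R07A4.2 on the opposite strand, which had 88, 38 and 36 reads in the mutant libraries and 0 and 6 in wildtype, and these libraries do not mark strand.

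Of the EAG and ERG pair, unc-103 gave the clearest separation of the set. unc-103 (WBGene00006830, chromosome III, 4115385 to 4147278, plus strand) encodes the ERG type channel, whose mutants are known for altered movement, egg laying and male mating behaviour. Its normalised counts were 586, 955 and 714 in the mutant libraries, against 30.5 and 3.19 in wildtype, which rest on 35 and 3 reads. The lowest mutant library was 19.2 times the highest wildtype library, where the same ratio ran from 1.82 to 4.60 for the other 9 genes. unc-103 rose by a log2 fold change of 6.0 (SE 0.89, adjusted p = 0.0382), and was 4.55 without wildtype replicate 2 (adjusted p = 0.132).

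egl-2 (WBGene00001171, chromosome V, 1289373 to 1299332, minus strand) encodes the EAG type channel, known from gain-of-function mutants that disturb egg laying and sensory behaviour. It had 1665, 881 and 579 normalised counts in mutant replicates 1 to 3, against 158 and 0 in wildtype. In wildtype replicate 2 no read was found, which allows up to 3.19 normalised counts (3 reads). Its log2 fold change of 6.23 (SE 1.94, adjusted p = 0.0717) became 2.58 without wildtype replicate 2 (adjusted p = 0.143). With 0.5 or 8 in place of the 1 added before the log it was 6.73 and 4.71.

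The KCNQ type genes, relatives of the channels behind the M current of vertebrate neurons, were both highest in mutant replicate 3. kqt-1 (WBGene00002233, chromosome X, 6619012 to 6627995, plus strand) had 472, 964 and 1460.2 normalised counts in mutant replicates 1 to 3, against 147 and 6.37 in wildtype. At a log2 fold change of 4.73 (SE 1.24, adjusted p = 0.0528) it stayed just short of the threshold. Exons of kqt-1 overlap those of clec-266 and aexr-2 on the opposite strand; aexr-2 had 26, 134 and 99 reads in the mutant libraries and 38 and 0 in wildtype, and clec-266 had 21, 6 and 41 against 121 and 1. kqt-3 (WBGene00002235, chromosome II, 13696282 to 13712931, plus strand) had 131, 314 and 498 normalised counts in the mutant libraries, against 61.9 and 0 in wildtype. Its log2 fold change was 5.11 (SE 1.70, adjusted p = 0.0805), with 2.13 without wildtype replicate 2 (adjusted p = 0.227). Both genes were lowest in mutant replicate 1, the library in which egl-2 and egl-36 were highest. Exons of kqt-3 overlap zipt-2.3 (at most 10 reads in any library) and those of slo-2 overlap prx-12 (at most 61 reads) on the opposite strand.

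Levels can be compared between genes only per length, so reads per kilobase of merged exons and per M reads (RPKM) were computed. In the mutant libraries slo-2 stood at 245 ± 30.2 RPKM and shk-1 at 188 ± 44.0 (SD, n = 3), followed by kvs-1 at 69.2 ± 15.9; in mutant replicate 3 shk-1 (234 RPKM) lay above slo-2 (216 RPKM). slo-1 (57.2 ± 21.9), egl-2 (47.4 ± 34.9), kqt-1 (46.8 ± 16.7) and shl-1 (35.7 ± 2.88) came next. egl-36 (29.5 ± 22), unc-103 (21.7 ± 4.36) and kqt-3 (18.03 ± 7.95) were the lowest. The ranges of neighbours in this order overlapped except between shk-1, at 147 RPKM or more in each mutant library, and kvs-1, at 83.5 RPKM or less. In wildtype the order of the mean RPKM was the same for the first 4 genes, with 29.5 ± 31.8 for slo-2, 17.9 ± 15.9 for shk-1, 8.71 ± 11.9 for kvs-1 and 7.07 ± 1.98 for slo-1 (SD, n = 2). unc-103 was the lowest there, at 0.385 ± 0.458 RPKM, and the ranges of all neighbours in the wildtype order overlapped. Lengths are those of WBcel235, as the annotation behind the authors' counts is not given in the labels.

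By its shares of channel reads wildtype replicate 1 lay near the mutant libraries for most genes, and wildtype replicate 2 lay apart. slo-2 took 43.7%, 47.7% and 41.2% of the reads of the 10 genes in mutant replicates 1 to 3, and 53.4% and 43.8% in wildtype replicates 1 and 2. The share of slo-1 was 12%, 8.32% and 7.57% in the mutant libraries and 7.99% and 32.4% in wildtype. In wildtype replicate 2, where the 10 genes had 710 reads, slo-1, slo-2 and shk-1 (20.1%) thus held nearly all of them. unc-103 took 3.74%, 5.72% and 3.74% in the mutant libraries, against 0.809% (95% interval 0.564% to 1.12%) and 0.423% (0.0872% to 1.23%) in wildtype. No other channel gene had a higher share in all 3 mutant libraries than in wildtype replicate 1 with intervals that did not overlap.

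**Figure D2:**
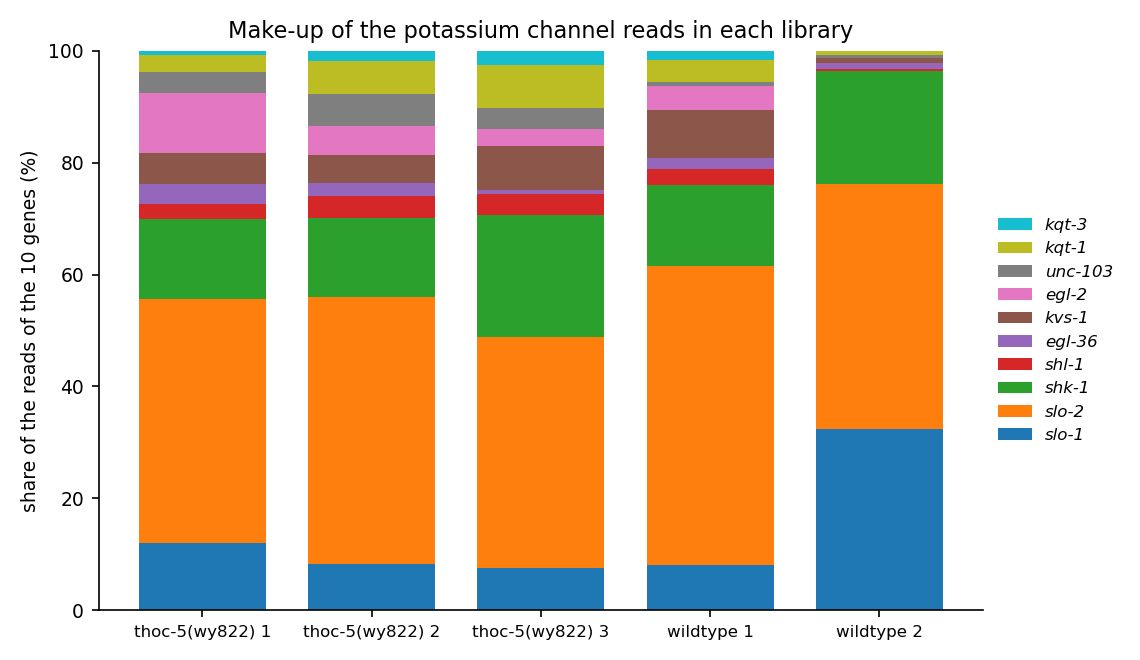
Share of each gene in the reads of the 10 channel genes, in percent, for the 3 thoc-5(wy822) and 2 wildtype libraries; each bar adds up to all channel reads of that library. slo-2 holds 41.2% to 53.4% in every library, and slo-1 stands out in wildtype replicate 2 at 32.4%.

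Set against the reads of the pan-neuronal list of the same library, which were mostly those of egl-21 and egl-3, the groups overlapped for 6 of the 10 genes. The 10 channel genes together had 157, 193 and 114 reads per 1000 pan-neuronal reads in mutant replicates 1 to 3, and 96.1 and 173 in wildtype replicates 1 and 2, with no gap between the groups. The 6 genes were slo-1, slo-2, shk-1, egl-36, egl-2 and kqt-3. slo-2 had 68.7, 92.0 and 46.9 reads per 1000 pan-neuronal reads in the mutant and 51.3 and 75.7 in wildtype. slo-1 was highest in wildtype replicate 2, at 56.0, where the mutant libraries had 18.8, 16.0 and 8.61 and wildtype replicate 1 had 7.68. For shl-1, kvs-1, unc-103 and kqt-1 every mutant library still lay above both wildtype libraries, as it did for 7.57% of all tested genes, while none of the 10 lay below in every mutant library, as 58% of all tested genes did. unc-103 had 5.87, 11 and 4.25 reads per 1000 pan-neuronal reads in the mutant libraries, against 0.777 (95% interval 0.541 to 1.08) and 0.730 (0.150 to 2.13) in wildtype. Both wildtype libraries gave nearly the same ratio for unc-103, although their pan-neuronal shares differed 10.9-fold. kvs-1 was close to level between the mutant libraries (8.81, 9.63 and 8.90) and wildtype replicate 1 (8.28), and low in wildtype replicate 2 (1.70, from 7 reads).

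**Figure D3:**
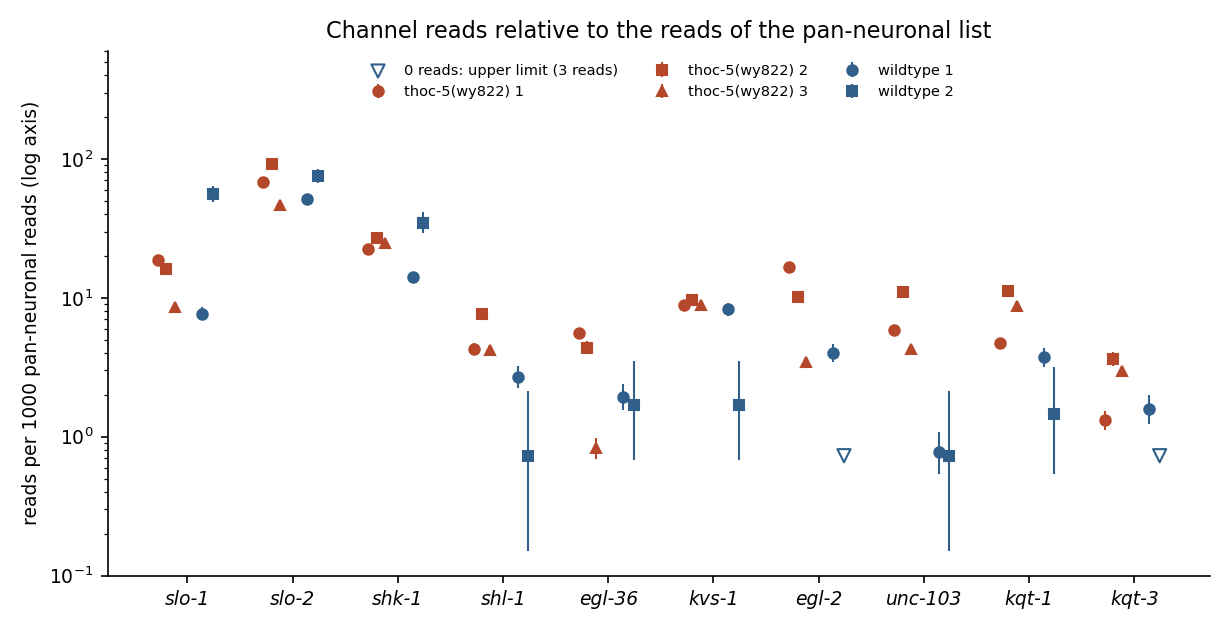
Reads of each channel gene per 1000 reads of the pan-neuronal list, on a log axis, for each library (3 thoc-5(wy822) left, 2 wildtype right); bars are exact 95% intervals for counting error, and open triangles mark the limit of 3 reads where no read was found. unc-103 is at 4.25 or more in the mutant libraries and at 0.777 or less in wildtype, while the groups overlap for slo-2.

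A related comparison was a fit over all genes, with each library scaled to the mean log2 level of the pan-neuronal list. In that mean each gene of the list counts alike, unlike in the summed reads, so the fit and the ratios can differ. The median over all tested genes was -3.03 under this scaling. Under that scaling 2 channel genes were called higher, unc-103 (log2 fold change 2.85, SE 1.04, adjusted p = 0.0295) and egl-2 (3.08, SE 1.27, adjusted p = 0.0496), where 0.319% of all genes were called higher and 52% lower. Values for slo-2 (0.05, SE 0.96), shk-1 (0.11, SE 0.95) and egl-36 (0.45, SE 1.10) were within their standard errors of 0. So was that of slo-1, which had a negative sign at -0.64 (SE 0.99, adjusted p = 0.610). The sign of slo-1 was positive, at 0.36, without wildtype replicate 2. Without wildtype replicate 2, in a setting added after the data were seen, the scaled log2 fold change was 2.54 for unc-103 (SE 0.65). It was between -0.34 and 0.57 for the other 9 genes, egl-2 among them at 0.57. With wildtype replicate 2 as the only wildtype library, the scaled values were 5.58 for egl-2, 3.79 for kqt-3 and 3.15 for unc-103. They were 2.83 for shl-1, 2.63 for kvs-1, 2.58 for kqt-1 and 0.89 for egl-36. slo-2, shk-1 and slo-1 had 0.20, -0.12 and -1.64. Which wildtype library was kept thus changed some values widely, such as slo-1 (0.36 or -1.64) and egl-2 (0.57 or 5.58). It changed unc-103 less (2.54 or 3.15). In both of these settings the single wildtype library borrows its spread from the mutant libraries, so only effect sizes are given.

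**Figure D4:**
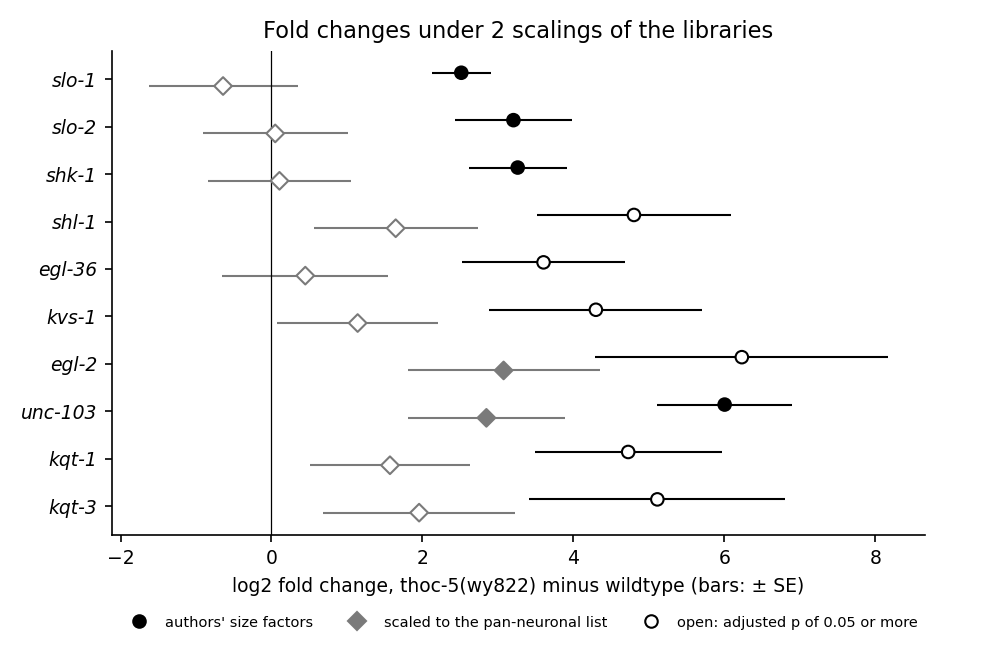
log2 fold change of each channel gene, thoc-5(wy822) minus wildtype, with standard errors, for the authors' size factors (circles) and for libraries scaled to the pan-neuronal list (diamonds); filled symbols have an adjusted p below 0.05 in limma. unc-103 is filled under both scalings (6.0 and 2.85), and slo-1 has 2.52 under the first and -0.64 under the second.

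Among 15 listed relatives of these channel genes 14 were tested, of which 6 rose and none fell, against 6.97% of all tested genes called higher and 5.92% called lower. Of the 14, 12 were higher in every mutant library than in both wildtype libraries, as were 30.1% of all tested genes, and the groups overlapped for kqt-2 and irk-2. No test compared the relatives with the 10 channel genes, and scaled to the pan-neuronal list 0 relatives were called higher and 1 lower. Their median log2 fold change was 3.32, and 1.88 without wildtype replicate 2. Those with the smallest p were kvs-4, a voltage-gated subunit gene, and the SK type (small-conductance, calcium-activated) channel genes kcnl-4, kcnl-1 and kcnl-3. kvs-4 had 482, 592 and 529 normalised counts in the mutant libraries, against 48.0 and 10.6 in wildtype (log2 fold change 4.48, SE 0.70, adjusted p = 0.0382, and 3.45 with adjusted p = 0.132 without wildtype replicate 2). The log2 fold changes of kcnl-4, kcnl-1 and kcnl-3 were 4.72, 3.42 and 3.16, and 3.43, 2.27 and 2.14 without wildtype replicate 2, where none passed. kvs-5 had the smallest log2 fold change of them, 0.67 (adjusted p = 0.268). kvs-2 was at 0 in all 5 libraries and was not tested.

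Genes for accessory subunits and regulators of these channels were called in both directions. Of 13 listed genes 11 were tested, of which 4 rose and 1 fell (against 6.97% of all tested genes called higher and 5.92% called lower), with a median log2 fold change of 2.09 (1.61 without wildtype replicate 2). When libraries were scaled to the pan-neuronal list, the 4 that rose went below 0 without being called lower, and mps-2 stayed lower. mps-1, the single-span partner of kvs-1, had 449, 646 and 1159 normalised counts in the mutant libraries, against 99.4 and 72.2 in wildtype, a log2 fold change of 3.02 (SE 0.54, adjusted p = 0.0384). The other 3 that rose were ctn-1 (2.09), the alpha-catulin gene, and stn-1 (2.32), a syntrophin gene, both known to place SLO-1 in the membrane, and adr-1 (1.96), an RNA-editing family gene known to affect SLO-2 function. mps-2, another single-span subunit gene of the same family, was the one that fell, and it is named here after its values were seen. It had 75.2, 91.5 and 89.7 normalised counts in the mutant libraries, against 385 and 2084 in wildtype (log2 fold change -3.38, SE 0.75, adjusted p = 0.0437, and -2.17 with adjusted p = 0.134 without wildtype replicate 2). The dystrophin gene dys-1, known to act with SLO-1 in muscle and likewise named after its values were seen, was lower in every mutant library, as were 26.5% of all tested genes. Its log2 fold change of -2.14 missed the threshold (adjusted p = 0.0540). Of the muscle markers 13 of 18 were lower in every mutant library, and their part in these values was not tested.

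Of the voltage-gated calcium channel genes, whose current opens SLO-1, 5 were listed and all 5 rose (against 6.97% of all tested genes called higher). That list was chosen with earlier results of these data known. The median log2 fold change of the 5 genes was 2.76 (2.50 without wildtype replicate 2). When libraries were scaled to the pan-neuronal list, 3 of the 5 went below 0 without being called lower. cca-1 (T type) and egl-19 (L type) rose by 2.76 each on the log2 scale, and the auxiliary subunit genes ccb-1 and unc-36 by 2.31 and 4.92, the last being 2.83 without wildtype replicate 2. Scaled to the pan-neuronal list, cca-1, egl-19 and ccb-1 turned to -0.40, -0.40 and -0.85, and none of the 5 was called. Of all tested genes with a mean of 50 or more, the one whose profile over the 5 libraries lay nearest to the mean profile of the 10 channel genes was the calcium channel gene unc-2, at a Euclidean distance of 0.21 in centred log2 values. cutl-8 (0.27), sprr-3 (0.27), ric-19 (0.30) and the innexin gene unc-9 (0.35) came next. The channel genes themselves lay between 0.84 (shl-1) and 3.43 (egl-2) from their own mean profile, with slo-1 at 3.27. The nearest genes were picked for their small distance and the channel genes were not, so these distances cannot rank one against the other.

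**Figure D5:**
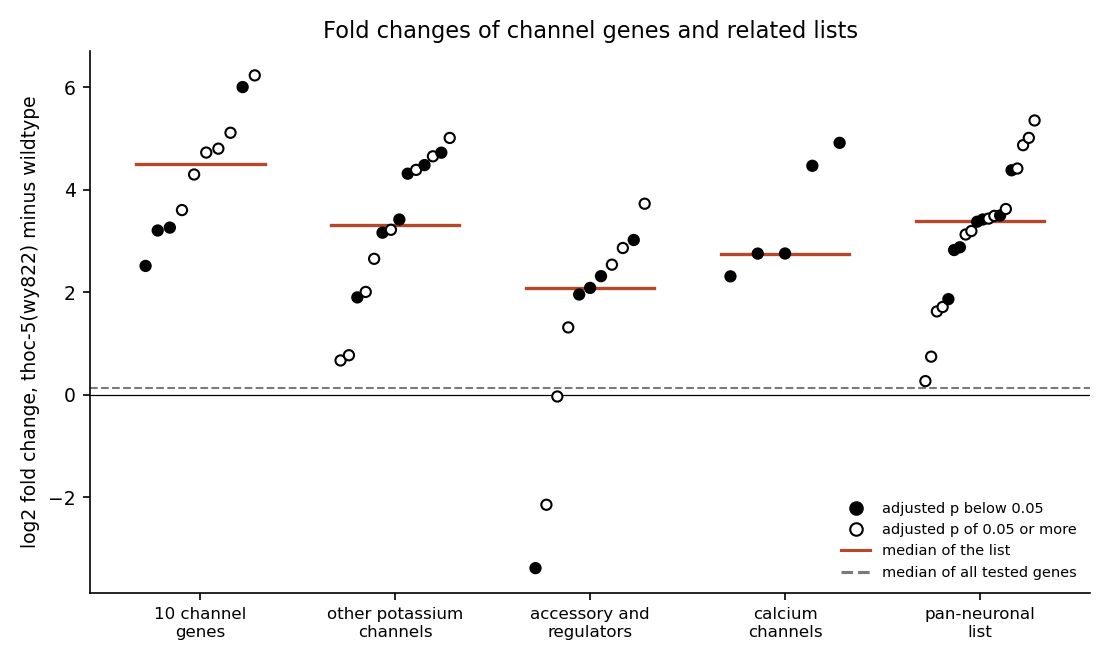
log2 fold change (thoc-5(wy822) minus wildtype) of each tested gene in 5 lists; filled points have an adjusted p below 0.05 in limma, red lines are list medians and the dashed line is the median of all tested genes (0.13). Medians are 4.51 for the 10 channel genes, 3.32 for other potassium channels, 2.09 for accessory genes, 2.76 for calcium channels and 3.40 for the pan-neuronal list, and without wildtype replicate 2 they are 2.35, 1.88, 1.61, 2.50 and 2.08 in the same order.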

How the data were processed

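Per the submitters' processing notes, Trim Galore, STAR 2.4.2a, DESeq2 and the build ce10 were used; the counter and annotation were not given in the sources used here. RNA was turned into cDNA with SMARTer v4 chemistry and Nextera XT libraries, per the labels' protocols, which do not mark strand. The authors deposited, per library, a signal: gene counts divided by 1 size factor per library. The deposited table also holds their log2 fold change, test statistic (a score) and p-value. Whole reads were recovered for 100% of values within 1e-04 reads; on them edgeR called 0 genes and DESeq2 2083 higher and 1649 lower.

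The main test was limma 3.58.1 (R 4.3.3, trended eBayes) on log2(normalised count + 1), with genes kept that had 10 or more in at least 2 of 5 libraries, with Benjamini-Hochberg adjustment over all of them and a two-sided threshold of 0.05. It was also run on simulated counts with the same dispersion for every gene and library. That run cannot speak for the test under the wide spread between these wildtype libraries. Alternatives used edgeR 4.0.16, DESeq2 1.42.0, other scalings, pseudocounts and filters, a replicate block and each library left out. An exact permutation of 3 against 2 libraries cannot go below 0.1. Members and lists were chosen with earlier results of these data known. Named genes are the 10 channel genes, thoc-5 (Y32H12A.2 in the table), the 4 smallest p of each related list and the 5 nearest profiles. Genes with exons that overlap those of a channel gene are named as well. Beyond these, mps-2, dys-1, kvs-5, kvs-2, kqt-2 and irk-2 were named after their values were seen. So were rab-3, unc-64, snb-1, maco-1, sng-1, egl-21 and egl-3 of the pan-neuronal list. hrpu-1 was matched by its sequence name. Positions and exon lengths are Ensembl WBcel235, matched by gene name; the build differs from ce10, so no ce10 position is given. Shares have exact 95% intervals, and without molecular identifiers in the reads these and the floors cover counting error only.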

Additional observations from a re-analysis of the deposited data

How the results depend on the processing

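No channel gene was called lower under any of the 16 other planned settings. That statement does not cover the pan-neuronal settings added after seeing the data, where slo-1 was as low as -1.64 without wildtype replicate 1. Those settings keep 1 wildtype library, so only effect sizes are read from them. Of the 10 channel genes, 7 were called higher by DESeq2 and in the authors' deposited table (14% and 13.4% of all genes), 10 with a pseudocount of 8, 9 after quantile normalisation, 6 after upper quartile scaling, 4 with a filter of 50, 3 with a pseudocount of 0.5, 3 with no filter and 2 scaled to the pan-neuronal list. Over all genes, the numbers called higher and lower were 2083 and 1649 by DESeq2, 2063 and 1654 in the authors' deposited table, 1737 and 1480 with a pseudocount of 8, 1573 and 1425 after quantile normalisation, 44 and 7169 scaled to the pan-neuronal list, and 533 higher with no filter. edgeR called 0 genes in every list and over all genes (7 channel genes and 3869 genes at an unadjusted p below 0.05). The replicate block, which left 1 mutant library without a partner, also called 0 genes in every list and over all genes (10 channel genes and 3951 genes at an unadjusted p below 0.05); same-numbered libraries deviated together at r = 0.01 and 0.11 over genes, and with 2 pairs the numbers are not taken to pair the samples. Of other potassium channel genes 11 were called higher with a pseudocount of 8 and after quantile normalisation, and 0 higher and 1 lower scaled to the pan-neuronal list. Calcium channel genes called higher were 3 with a pseudocount of 0.5 and 0 under pan-neuronal scaling. Accessory genes called lower were 2 by DESeq2, in the authors' deposited table, with a pseudocount of 8 and after quantile and upper quartile scaling, and 3, with 0 higher, under pan-neuronal scaling. Leaving out 1 library at a time gave 0 to 10 channel genes higher, 0 to 2167 genes higher and 0 to 480 lower over all genes, 0 to 12 other potassium channel, 0 to 5 calcium channel and 0 to 6 accessory genes higher, and 0 to 2 accessory genes lower. Pan-neuronal scaling turned slo-1 (-0.64), mps-1 (-0.14), ctn-1 (-1.07), stn-1 (-0.84), adr-1 (-1.20), egl-19 (-0.40), cca-1 (-0.40) and ccb-1 (-0.85), none of which was called lower. Added after seeing the data, that scaling without wildtype replicate 1 gave -1.64 for slo-1 and -0.12 for shk-1, and without wildtype replicate 2 gave -0.10 for slo-2 and -0.34 for kvs-1. The median log2 fold change of all genes was 0.13, and 0.10, -0.02 and -3.03 under upper quartile, quantile and pan-neuronal scaling. Apart from pan-neuronal scaling, no alternative changed the direction of a channel gene. Wildtype replicate 2 had 0 to 7 reads for 7 of the 10 genes, which limits the precision of those values, although its total of 10.2 M reads was above that of each mutant library. The cause of these changes was not tested.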
